A study of Mus musculus with 4 samples.

Results

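Splenic natural killer (NK) cells were compared between mice labelled Tcf7 knock-out and wild-type mice through 10 genes that are typical of the terminally mature stage: Itgam, Klrg1, Spn, Ly6c2, Cma1, Emilin2, Itgax, Rap1gap2, Lgals1 and Lgals3. The genes were chosen by name, and all 10 were found by Entrez number among the 26611 genes of the count table. The KO group held 2 mice, labelled Tcf7 knock-out, and the WT group held 2 mice, labelled wild type, all on the C57BL/6 background, with 1 library from each mouse. The knock-out allele, whether it acted in all cells, and the age and sex of the mice are not given in the sources used here. In both genotypes the sequenced cells were TCRbeta-negative spleen cells sorted for NK1.1, NKp46, CD11b and KLRG1, so the proteins encoded by Itgam and Klrg1 were part of the gate.

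NK cells are innate lymphocytes that kill target cells. As they mature in mice they lose CD27 and gain CD11b, then CD43 and KLRG1, under the T-box factors Eomes and T-bet, with Zeb2 and Blimp-1 acting late. Tcf7 encodes Tcf-1, a DNA-binding factor that is highest in immature NK cells and falls as they mature. The comparison asks how transcripts of the last stage stand under the Tcf7 knock-out in cells that already carry the proteins of that stage.

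Tcf7 itself stood at 11.2 and 25.0 CPM in the KO libraries, against 89.4 and 79.1 CPM in the WT libraries, where CPM (counts scaled to a common library total, with edgeR's TMM factors) is the level of a gene. The fitted log2 fold change, KO minus WT, was -2.22 (SE 0.45), and DESeq2 called the gene lower (adjusted p = 0.00216). The edgeR test used below called 0 genes, so it did not call Tcf7 either. Its smallest adjusted p over all genes was 0.561. The totals were 28254693 and 37384979 counts in KO and 31860505 and 40175537 counts in WT, so that 1 CPM stood for 29.3 to 39.3 counts. Ncr1, which encodes NKp46, ranged from 1509.4 to 1732 CPM in the 4 libraries. The T cell gene Cd3e stayed between 0.239 and 0.610 CPM, but the summed level of 12 T cell markers, several of them T cell receptor segments, was 439 and 262 CPM in KO, against 405 and 329.8 CPM in WT. Markers of other blood cells differed between libraries. The summed level of 26 myeloid markers was 865 and 161 CPM in KO libraries 1 and 2, against 250.3 and 67.0 CPM in WT libraries 1 and 2, and that of 11 erythroid and platelet markers was 212 and 128 CPM in KO, against 39.8 and 29.2 CPM in WT. With 2 libraries a group, no exact permutation of the labels can give a two-sided p under 0.333.

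None of the 10 genes passed the test over all genes. Itgax, which encodes the integrin chain CD11c, stood in KO cells at 1.71 times the WT level, and Klrg1, an inhibitory receptor gene, at 1.49 times. Ly6c2, which encodes the surface protein Ly6C, stood at 0.682 times. Itgam, Spn, Rap1gap2, Cma1 and Lgals1 lay within 0.28 of 0 on the log2 scale, and Emilin2 and Lgals3 had larger fold changes with overlapping groups.

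The test was edgeR's quasi-likelihood test over 12723 genes, with Benjamini-Hochberg adjusted p under 0.05. It called 0 genes, which is 0% of those tested, and 0 of the 10, each with an adjusted p of 1.00. At an unadjusted edgeR p under 0.05 there were 361 genes, or 2.84%. Of all genes 1.7% passed that mark as higher in KO, with Itgax the 1 of the 10, and 1.14% as lower, with Ly6c2 the 1 of the 10. Ly6c2 missed that mark in edgeR under 4 other settings that keep all libraries. Its unadjusted edgeR p was then 0.0585 with DESeq2 size factors, 0.0730 with library size alone, 0.0751 with no filter and 0.0685 with the filter of 5 CPM, and its edgeR adjusted p 1.00 in each. DESeq2 called 71 genes, or 0.558%, of which the higher ones were 0.377% of those tested and the lower ones 0.181%. It called 0 of the 10, and limma voom made 0 calls. The edgeR count was 33 without KO library 1 and 53 without KO library 2, again with 0 of the 10. With the library number as a block, edgeR called 1.74% of genes and 2 of the 10, and DESeq2 called 1.89% and 3 of the 10. Both KO libraries lay above both WT libraries for 2 of the 10, Itgax and Klrg1, where 9.64% of all tested genes did so. Both lay below for 1, Ly6c2, where 11.6% did. Together these were 3 of the 10, against 21.2% of all tested genes.

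**Figure D1:**
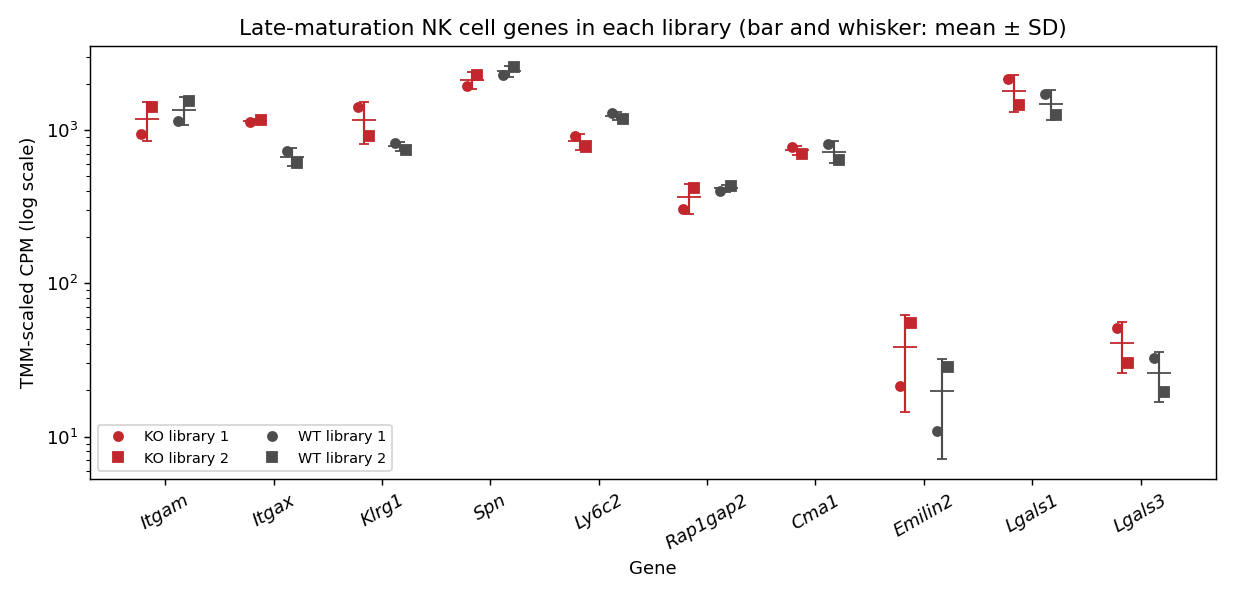
TMM-scaled CPM on a log axis for the 10 genes in KO (red, left) and WT (grey, right) libraries, with circles for library 1, squares for library 2 and the mean ± SD of each group. The groups do not overlap for Itgax, Klrg1 and Ly6c2, and Emilin2 and Lgals3 sit below 60 CPM in every library.

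Sequences of 2 gene pairs are printed, since the pairs are neighbours or near-copies and their counts are read side by side. Itgam and Itgax are neighbours on mouse chromosome 7, where 11034 bases separate the end of Itgam from the start of Itgax. Their promoter regions are given from the RefSeq table of GRCm38.p6, on the plus strand, with the 50 bases after the start tabled for the promoter in capitals. For Itgax that start lies inside the gene, after the gene start of 128129526.
Itgax, chr7:128129300-128129599: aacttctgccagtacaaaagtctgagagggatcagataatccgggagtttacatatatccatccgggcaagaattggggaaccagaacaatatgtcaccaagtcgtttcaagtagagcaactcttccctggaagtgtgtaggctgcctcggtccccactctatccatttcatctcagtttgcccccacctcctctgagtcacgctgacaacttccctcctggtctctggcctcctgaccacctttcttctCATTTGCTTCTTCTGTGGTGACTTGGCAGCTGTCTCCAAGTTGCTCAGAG
Itgam, chr7:128062390-128062689: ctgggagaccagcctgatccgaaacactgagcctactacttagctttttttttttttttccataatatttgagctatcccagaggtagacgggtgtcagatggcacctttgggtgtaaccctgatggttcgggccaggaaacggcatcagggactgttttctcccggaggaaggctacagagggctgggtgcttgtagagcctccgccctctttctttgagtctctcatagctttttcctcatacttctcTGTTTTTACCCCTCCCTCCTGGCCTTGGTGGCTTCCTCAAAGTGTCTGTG

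Promoters were held for 8 of the 10 genes, 13 in all, each 300 bases long. They were searched on both strands for CTTTGAT, a motif of TCF/LEF factors, and for AGGTGTGA, a motif of T-box factors. Both hold the letters TGA, but neither contains the other. Of all 32851 promoters tabled, the first was in 3.73% and the second in 1.28%, and 0 of the 13 held either. The absence covers only these letters in these windows.

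Ly6c2 lies beside its near-identical copy Ly6c1 on chromosome 15, and reads common to both can be assigned to either or dropped. The first 300 coding bases of a transcript of each (GENCODE annotation of GRCm38, minus strand, transcripts spanning chr15:75108161-75111970 for Ly6c2 and chr15:75045013-75048830 for Ly6c1) are shown with the 7 differing bases in capitals.
Ly6c2: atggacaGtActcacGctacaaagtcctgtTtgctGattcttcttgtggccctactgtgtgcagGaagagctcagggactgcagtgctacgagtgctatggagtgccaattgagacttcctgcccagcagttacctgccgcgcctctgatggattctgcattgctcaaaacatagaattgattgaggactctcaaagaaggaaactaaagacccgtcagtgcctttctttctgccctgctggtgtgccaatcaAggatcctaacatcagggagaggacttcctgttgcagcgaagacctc
Ly6c1: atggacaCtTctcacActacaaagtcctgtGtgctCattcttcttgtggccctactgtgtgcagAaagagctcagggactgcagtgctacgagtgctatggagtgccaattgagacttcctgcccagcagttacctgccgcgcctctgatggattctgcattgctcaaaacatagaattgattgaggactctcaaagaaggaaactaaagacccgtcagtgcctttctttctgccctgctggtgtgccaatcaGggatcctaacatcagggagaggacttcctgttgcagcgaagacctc
Over the whole coding sequence they differ at 9 of 393 bases, an identity of 97.7%, and share an unbroken run of 188 bases. The level of each is therefore uncertain.

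Itgam (chromosome 7, 128062640 to 128118491, mm10) encodes CD11b, the alpha chain that with CD18 forms the complement receptor Mac-1. Its level was 942 and 1417 CPM in KO cells, against 1148 and 1546 CPM in WT cells, and the groups overlapped. The log2 fold change was -0.19 (SE 0.31). Libraries numbered 1 were the lower in both genotypes.

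Itgax (chromosome 7, 128129526 to 128150657) encodes CD11c, the alpha chain of a second CD18 integrin, used as a dendritic cell marker and also carried by mature mouse NK cells. It stood at 1126 and 1164 CPM in KO cells, against 732 and 603 CPM in WT cells, so both KO libraries lay above both WT libraries. The means were 1145 ± 27.1 CPM in KO and 668 ± 91.3 CPM in WT (SD, n = 2 each). This gave a fitted log2 fold change of 0.78 (SE 0.21), an unadjusted edgeR p of 0.0168, an edgeR adjusted p of 1.00 and a DESeq2 adjusted p of 0.647. Taken by library number, KO stood above WT by 0.62 (number 1) and 0.95 (number 2) on the log2 scale.

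Because CD11c is also a dendritic cell protein, the myeloid markers are set beside it. Lyz2, a lysozyme gene of macrophages and neutrophils, stood at 257 and 18.6 CPM in KO libraries 1 and 2, against 92.7 and 3.31 CPM in WT libraries 1 and 2. Itgax was higher in KO library 2 than in WT library 1. Of the 26 myeloid markers other than Ccr2, which NK cells express, 9 were also higher in KO library 2 than in WT library 1. Of all 26611 genes counted, 8981 were, but 9684 genes had 0 counts in KO library 2 and 9772 in WT library 1. Genes without counts lower that share. Lyz2 and the summed myeloid level were lower in KO library 2. Of the 22 myeloid markers tested, 22 lay above 0 with a median log2 fold change of 1.03. For 7 of the 22, both KO libraries lay above both WT libraries, as for Itgax, against 9.64% of all tested genes. Zbtb46, a factor of classical dendritic cells, stood at 2.04 and 3.19 CPM in KO, against 2.25 and 2.83 CPM in WT. The class II gene H2-Aa stood at 42.2 and 8.32 CPM in KO, against 22.9 and 7.18 CPM in WT. Both genes were picked after their values were seen, and the other dendritic cell markers are not given here. The 22 markers tested ran from 0.047 to 6.80 on the log2 scale. With Ccr2 included the median was 0.86 over 23 markers, and -0.41 without KO library 1. Only Mpo and Elane, neutrophil granule genes, were called higher by DESeq2, which called 0.377% of all tested genes higher. The edgeR test called 0 of these markers. The summed level ranged from 161 to 865 CPM in KO and from 67.0 to 250.3 CPM in WT, with 1 of the 26 at 0 in KO library 2 and 4 at 0 in WT library 2. The part of myeloid or dendritic cell RNA in the Itgax values was not tested.

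Per kilobase of gene length, CD11c transcripts were set against CD11b transcripts. The ratio of Itgax to Itgam was 1.39 and 0.956 in KO cells, against 0.742 and 0.454 in WT cells, and both KO values lay above both WT values. The scaling of the libraries cancels in this ratio. The common beta chain gene Itgb2 stood at 3381 and 3226 CPM in KO and 3782 and 3751 CPM in WT (log2 fold change -0.19, SE 0.20), and Itgax per kilobase was 0.237 and 0.257 of Itgb2 in KO, against 0.138 and 0.114 in WT. For Itgam that ratio was 0.170 and 0.269 in KO and 0.186 and 0.252 in WT, which overlap. Itgal, the CD11a gene, stood at 1834 and 3504 CPM in KO and 2582 and 3719 CPM in WT.

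Itgad, the CD11d gene and the next gene along from Itgax, stood at 55.9 and 31.1 CPM in KO, against 32.9 and 26.7 CPM in WT. Its groups overlapped (log2 fold change 0.54, SE 0.36). The coding sequences of Itgax and Itgad share an unbroken run of 188 bases, so some reads of either can be lost or moved in counting. Itgax and Itgam share no run longer than 16 bases.

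**Figure D2:**
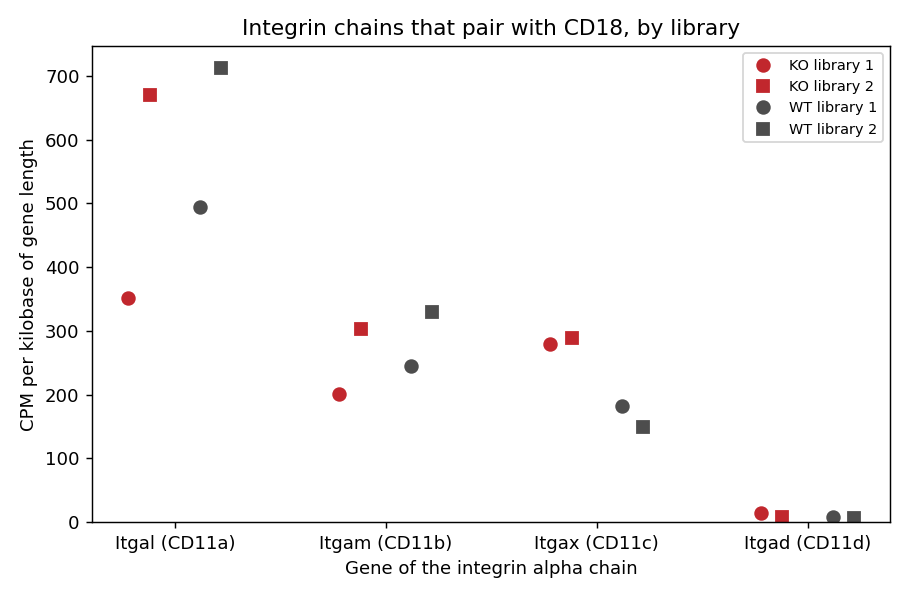
CPM per kilobase of gene length for the 4 integrin alpha chains that pair with CD18, in KO (red, left) and WT (grey, right) libraries, circles for library 1 and squares for library 2. The KO libraries lie above the WT libraries for Itgax (CD11c), while the groups overlap for Itgal, Itgam and Itgad.

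Klrg1 (chromosome 6, 122270596 to 122282833) encodes an inhibitory lectin-like receptor that binds cadherins and marks terminally mature NK cells. It stood at 1409.6 and 914 CPM in KO cells, against 817 and 739.8 CPM in WT cells, and the groups did not overlap. KO library 1 was well above the other 3. Its fitted value was 0.58 on the log2 scale (SE 0.28), with an unadjusted edgeR p of 0.104 and an edgeR adjusted p of 1.00. The same-number log2 ratios were 0.79 and 0.31. Set against Ncr1, which encodes another receptor of the sort, Klrg1 per kilobase was 93.8% and 64.9% of Ncr1 in KO and 50.6% and 51.0% in WT. Its ligand gene Cdh1, for E-cadherin, stayed between 0.0832 and 0.477 CPM in these cells.

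Spn (chromosome 7, 127123637 to 127145552) encodes CD43, a large sialoglycoprotein that marks late NK cells together with CD11b. It had 1918 and 2291 CPM in KO cells, against 2263 and 2559 CPM in WT cells, which overlap. The log2 fold change was -0.20 (SE 0.22).

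Ly6c2 (chromosome 15, 75108161 to 75112066) encodes a lipid-anchored surface protein known from monocytes and from a share of mature NK cells. It stood at 909 and 769 CPM in KO cells, against 1281 and 1181.5 CPM in WT cells, both KO libraries below both WT libraries. The means were 839 ± 99.2 CPM in KO and 1231 ± 70.4 CPM in WT (SD, n = 2 each), for a fitted log2 fold change of -0.55 (SE 0.21). The unadjusted edgeR p was 0.0498, the DESeq2 adjusted p 1.00, and the same-number log2 ratios -0.49 and -0.62.

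Ly6c1 stood at 19.4 and 19.5 CPM in KO, against 31.0 and 27.1 CPM in WT, again without overlap. Its log2 fold change was -0.58 (SE 0.21). Per kilobase of deposited gene length it was 1.04% and 1.23% of Ly6c2 in KO and 1.18% and 1.12% in WT, so the pair kept close to 1 ratio across genotypes. Given the 188 shared bases, how far the Ly6c1 counts come from Ly6c2 transcripts was not tested. Of the other Ly6 genes, Ly6e, the highest, stood at 378 and 621 CPM in KO and 467 and 626 CPM in WT, which overlap.

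Rap1gap2 (chromosome 11, 74383356 to 74610915) encodes a GTPase-activating protein that switches off Rap1, the small GTPase that activates integrins from inside the cell. It stood at 305 and 419.5 CPM in KO cells, against 401 and 430.5 CPM in WT cells. The groups overlapped, with KO library 1 the lowest, and the log2 fold change was -0.20 (SE 0.24). Tcf7 lies on the same chromosome, at 52246527 to 52283383.

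Cma1 (chromosome 14, 55941451 to 55944675) encodes mouse mast cell protease 5, a chymase named for mast cell granules and also transcribed in mature NK cells. Its level was 773 and 699 CPM in KO cells, against 805 and 638 CPM in WT cells, so the WT libraries bracketed the KO libraries (log2 fold change 0.03, SE 0.22). Defining mast cell genes were at or near 0: Tpsab1 had 0 counts in all 4 libraries, Mcpt4 had 0 and 0 counts in KO and 1 and 1 in WT, and Cpa3 ranged from 1.40 to 2.31 CPM. The sum over 12 mast cell and basophil markers was 7.63 and 2.08 CPM in KO and 4.49 and 1.60 CPM in WT.

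Emilin2 (chromosome 17, 71252172 to 71311556) encodes an extracellular matrix glycoprotein. It had 21.4 and 55.3 CPM in KO cells, against 10.8 and 28.6 CPM in WT cells. Groups overlapped, since KO library 1 lay below WT library 2, but the same-number log2 ratios were 0.98 and 0.95. The fitted value was 0.96 (SE 0.68), with an unadjusted edgeR p of 0.222 and an edgeR adjusted p of 1.00. Libraries numbered 2 were the higher in each genotype for Emilin2, a gene of 3910 bases. Over tested genes of 3167 to 4534 bases, the median of library 2 minus library 1 was 0.18 on the log2 scale. Of the 26 myeloid markers, 24 were higher in libraries numbered 1 in both genotypes, Zbtb46 and Vcan being the others. Of all 26611 genes counted, 6459 were, a share lowered by the 9680 to 9772 genes with 0 counts in each library. The part of myeloid RNA in the Emilin2 values was not tested. Its relative Emilin1 ranged from 1.08 to 3.79 CPM.

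Lgals1 (chromosome 15, 78926725 to 78930465) and Lgals3 (chromosome 14, 47373860 to 47386167) encode galectin-1 and galectin-3, secreted lectins that bind beta-galactosides on glycoproteins such as CD43. Lgals1 stood at 2128 and 1450.1 CPM in KO cells, against 1711 and 1253 CPM in WT cells (log2 fold change 0.27, SE 0.30), and the groups overlapped. Lgals3 stood at 51.4 and 30.3 CPM in KO cells, against 32.7 and 19.5 CPM in WT cells, again with overlap. Its fitted value was 0.64 on the log2 scale (SE 0.41), with an unadjusted edgeR p of 0.183 and an edgeR adjusted p of 1.00. Its same-number log2 ratios were 0.65 and 0.63. Galectin-3 is also the macrophage antigen Mac-2. The libraries stood in the same order for Lgals1, Lgals3 and Lyz2, but how many of all genes share that order was not counted. Both galectin genes are short, at 800 and 1406 bases. Over tested genes of up to 1408 bases, the median of library 2 minus library 1 was -0.47 in KO and -0.31 in WT on the log2 scale. The part of myeloid RNA in the galectin values was not tested. In sorted bulk cells a smaller number of cells of a type and less RNA per cell cannot be told apart. Lgals9 stood at 185 and 238 CPM in KO and 225 and 229 CPM in WT.

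**Figure D3:**
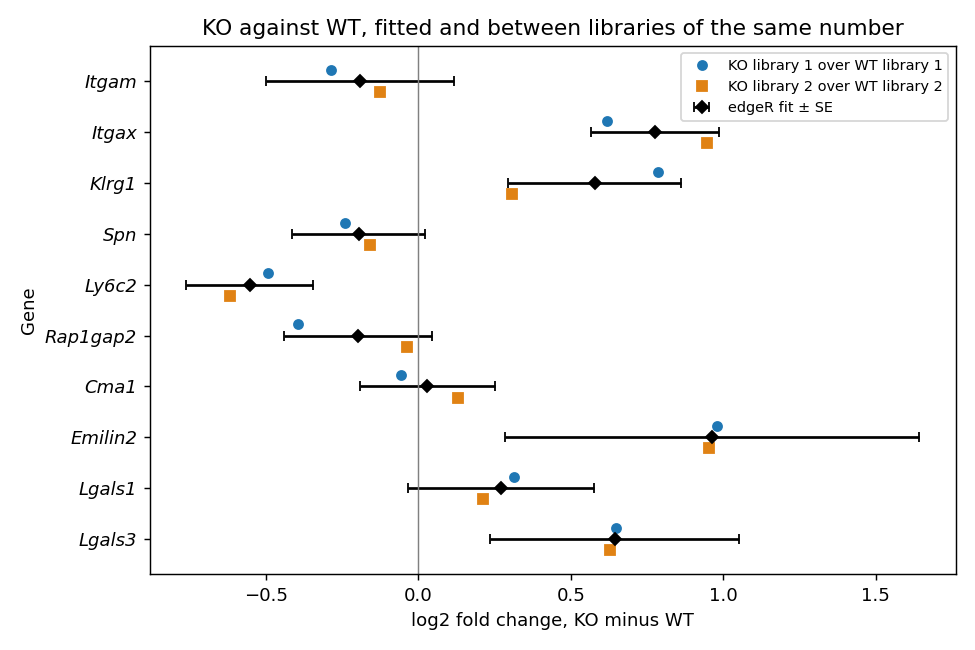
Log2 fold change, KO minus WT, for each gene: the diamond and bar give the edgeR fit ± SE, the circle the ratio of the libraries numbered 1 and the square that of the libraries numbered 2. Both ratios fall on the same side of 0 for all genes drawn except Cma1, and they lie almost on each other for Emilin2 and Lgals3.

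Across libraries, 9 of the 10 genes had same-number ratios of 1 sign, Cma1 being the exception, where 57.1% of all tested genes had this. This count was made after the values were seen. Of the 10, 6 had a fitted value above 0 and 4 below, with a median of 0.15 and a range of -0.55 to 0.96. The sign of Itgam, Cma1, Rap1gap2 and Lgals1 turned with KO library 1 left out, and that of Itgam and Cma1 also with WT library 2 left out. The median over all genes tested was -0.01. The median of the 10 was 0.044 without KO library 1, 0.068 without WT library 2 and 0.31 without WT library 1. Together the 10 genes took 0.995% and 0.888% of all counts in KO, against 0.939% and 0.880% in WT.

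Per kilobase, the order of the genes was much the same in both genotypes. Lgals1 was the highest, at 2237 ± 599 CPM per kilobase in KO and 1852 ± 405 in WT, and Ly6c2 was next, at 1048 ± 124 in KO and 1537 ± 87.9 in WT (SD, n = 2 each). Klrg1, Cma1 and Spn followed within each other's spread in WT, at 570.2 ± 39.9, 671 ± 109.5 and 616 ± 53.4 CPM per kilobase. In KO the same 3 stood at 851 ± 256, 684 ± 48.7 and 538 ± 67.5 CPM per kilobase. Itgam and Itgax came after them at 252 ± 71.7 and 284 ± 6.74 in KO and 288 ± 60.1 and 166 ± 22.7 in WT. Rap1gap2, Lgals3 and Emilin2 closed the order in every library, at 56.5 ± 12.7, 29.0 ± 10.6 and 9.82 ± 6.13 in KO and 64.8 ± 3.30, 18.6 ± 6.63 and 5.04 ± 3.21 in WT. In WT cells 6 of the genes stood at percentile 98.1 or higher among all tested genes on this scale, and Emilin2 at percentile 39.4.

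Levels of the 10 genes also moved with library number, along with gene length as deposited. The 5 genes shorter than 2000 bases, Lgals1, Ly6c2, Cma1, Klrg1 and Lgals3, were lower in library 2 than in library 1 of both genotypes. Of the 5 longer genes, 4 were higher in library 2 of both genotypes. Itgax was the exception, with library 2 minus library 1 at 0.05 in KO and -0.28 in WT on the log2 scale. Over all tested genes the median of that difference, averaged over the genotypes, was -0.39 for genes of up to 1408 bases and 0.58 for genes of 4535 bases or more. The rank correlation of length with the difference was 0.68 over the 10 genes, which share the 4 libraries, and 0.53 over all tested genes. The labels do not say what the numbers stand for. Over 5 length classes of near-equal size, the median fitted KO minus WT value fell steadily, from 0.08 in the shortest class to -0.06 in the longest.

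**Figure D4:**
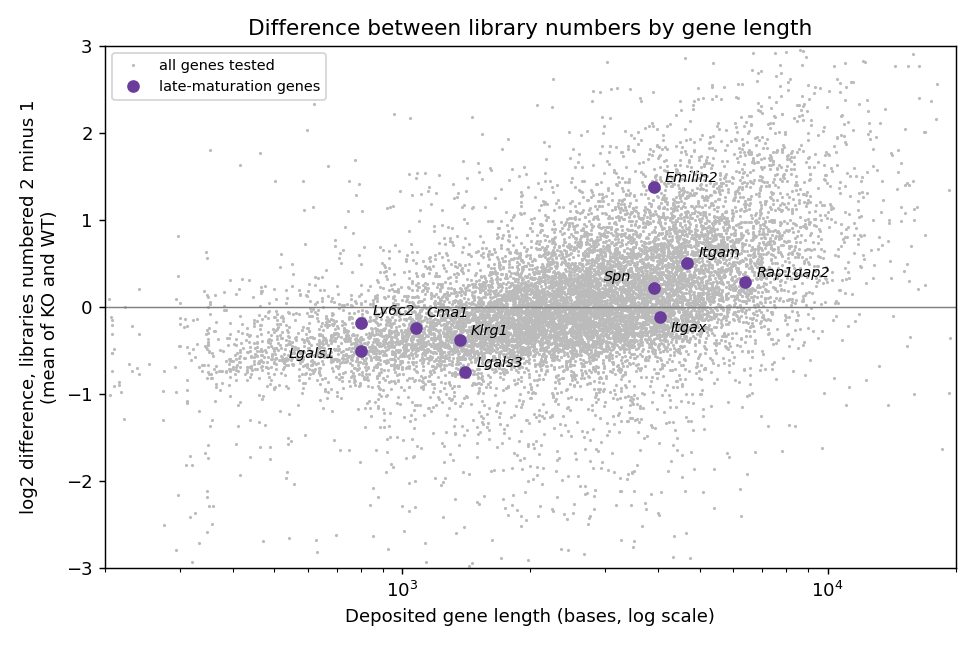
Log2 difference between libraries numbered 2 and 1, averaged over KO and WT, against the deposited gene length on a log axis, for all tested genes (grey) and the 10 late-maturation genes (purple). The short genes Lgals1, Ly6c2, Cma1, Klrg1 and Lgals3 lie below 0 and the long ones above it, except Itgax; 96 of 12723 genes fall outside the axes.

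Gene lists around the 10 were described by their counts, with 0 edgeR calls in each. The list of other late-maturation genes was broad and held genes such as Foxo1, Id2 and Bcl2. Of its 25 genes, 11 lay above 0 and 14 below, from -0.40 to 0.89, with a median of -0.06, which was 0.20 without KO library 1. The highest of them, Prf1 for perforin, stood at 3438 and 5320 CPM in KO, against 4127 and 4998 CPM in WT, and Gzmb for granzyme B at 2798 and 2687 CPM in KO, against 2115 and 1841 CPM in WT. Of 25 early-maturation genes, 9 lay above 0 and 16 below, with a median of -0.15, which was -0.43 without KO library 1. DESeq2 called 3 of the 25 lower, against 0.181% of all tested genes. They were Kit, the stem cell factor receptor gene (log2 fold change -2.55), Il7r, the interleukin 7 receptor gene (-3.12), and Klrc1, which encodes NKG2A (-2.02). For 9 of the 25 each KO library was below each WT library, against 11.6% of all tested genes.

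Genes that act with the encoded proteins showed the following. Of 26 tested genes for integrin partners and the Rap1 machinery, 11 lay above 0 and 15 below, with a median of -0.06. With Rap1gap2 counted, the median was -0.08, and leaving out KO library 2 gave -0.41 and WT library 2 gave 0.16. Of 13 tested partners of KLRG1 and CD43, 6 lay above and 7 below, with a median of 0.00, which ranged from -0.22 to 0.27 with 1 library left out, and moesin (Msn), which anchors CD43 to actin, stood at 1406 and 2203 CPM in KO and 1876 and 2195 CPM in WT. The 4 other tested galectin genes had a median of -0.03, and the 7 other tested Ly6 genes one of -0.22. Emilin1, the 1 other tested gene of its family, had -0.49, with same-number log2 ratios of opposite sign, 0.87 (number 1) and -1.34 (number 2). With Ly6c2 counted, the Ly6 median was -0.22, and leaving out KO library 2 gave 0.33 and WT library 1 gave 0.40. Of 12 NK cell markers, which include Itgam and Klrg1, 5 lay above 0 and 7 below, with a median of -0.03. Of 3 tested mast cell and basophil markers the median was -0.12, and it ranged from -0.83 to 4.42 with 1 library left out and was 0.77 with limma voom.

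Markers of lymphoid and red cells were counted as well. Of 11 tested T cell markers 3 lay above 0 and 8 below (median -0.16, and 0.11 without KO library 2 and 0.12 without WT library 1). DESeq2 called 1 of the 11 higher, Trac, a T cell receptor constant segment, against 0.377% of all tested genes. Of 8 tested B cell and plasma cell markers 6 lay above 0 (median 0.17, and -0.62 without KO library 1). Of 9 tested erythroid and platelet markers 9 lay above 0 (median 2.28, and 1.28 without KO library 1). DESeq2 called 3 of the 9 higher, the hemoglobin genes Hba-a1, Hba-a2 and Hbb-bs, against the same 0.377% of all tested genes. The part of such cells in the values of the 10 genes was not tested.

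**Figure D5:**
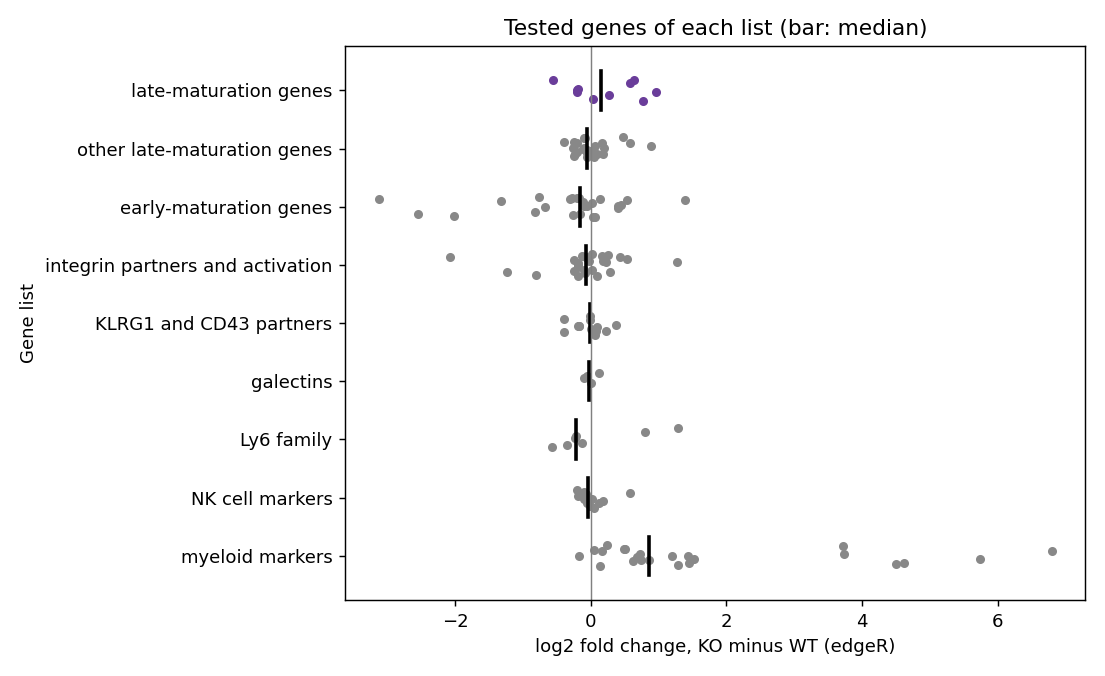
Fitted log2 fold change, KO minus WT, of each tested gene (points) by list, with the median of each list as a bar. Integrin, galectin and Ly6 lists are drawn without the 10 genes, and the NK cell marker list includes Itgam and Klrg1. The late-maturation genes spread from -0.55 to 0.96 around a median of 0.15, the early-maturation list reaches -3.12, and the myeloid markers lie above 0 with 1 exception.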

How the data were processed

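The authors deposited raw counts of reads per Entrez gene with a gene length in bases, per the file headers, and the submitters' processing notes name featureCounts and mm10. The aligner, versions and strand setting were not stated in the labels. The single-sample files held the same counts as the table. Symbols and positions came from RefSeq (GRCm38.p6), which matched 25275 of 26611 gene numbers (95.0%).

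Genes were kept with filterByExpr (minimum count 10) and fitted with edgeR 4.0.16 in R 4.3.3 (TMM, robust quasi-likelihood, genotype as the only term), with p-values adjusted over all 12723 genes. Alternatives used DESeq2 1.42.0, limma 3.58.1 voom, other scaling and filters, the library number as a block, and each library left out. SE is the fold change over the root of F, and 0.1 CPM was added in same-number ratios. A count of 0 allows up to 0.0764 to 0.102 CPM (3 counts), counting error only. The code was tested on simulated data. The 10 genes and the lists were chosen with earlier results of these data known. Named genes were the 10, Tcf7, and of each list the genes called by edgeR or DESeq2 or else up to 2 of the highest, plus Itgb2, Ly6c1, Lgals9 and Emilin1. Ncr1, Cd3e, Cx3cr1, Cdh1, Lyz2, Zbtb46, H2-Aa, Vcan, Itgad, Tpsab1, Mcpt4, Foxo1, Id2 and Bcl2 were added after their values were seen.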

Additional observations from a re-analysis of the deposited data

How the results depend on the processing

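All 4 libraries were kept in 9 alternatives, and each was left out once in 4 more. The count of genes called was 35 with no filter on low counts and 71 with DESeq2, and 0 to 53 with a library left out. With the library number as a replicate block it was 221 (edgeR, 1.74% of genes) and 240 (DESeq2 with the block, 1.89%, an alternative added after seeing the data). Deviations of same-numbered libraries from their group means correlated at 0.743 over genes, but with 2 pairs and no label for the numbers this does not show that they pair the mice. Of the 10 genes, the edgeR block fit called 2, Emilin2 (adjusted p = 0.00840) and Itgax (0.0322), and the DESeq2 block fit called 3, Emilin2 (4.99e-04), Itgax (2.93e-04) and Ly6c2 (0.0432). Lgals3 (0.0554) and Ly6c2 (0.117) did not pass in the edgeR block fit. With only 4 libraries, a block leaves little to estimate each gene's own spread. The p-values of both block fits therefore rest largely on variance shared across genes. No other alternative called any of the 10. The median of the 10 was 0.18 under the filter of 5 CPM or more in 2 libraries and 0.044 to 0.31 with a library left out. The signs of 4 genes turned with a library left out: the log2 fold change ranged from -0.48 to 0.073 for Itgam, -0.11 to 0.20 for Cma1, -0.41 to 0.014 for Rap1gap2 and -0.030 to 0.56 for Lgals1. The causes were not tested. For the other 6 genes the sign held in all 13 alternatives, with Itgax at 0.66 to 0.92, Ly6c2 at -0.68 to -0.40, Klrg1 at 0.23 to 0.89, Lgals3 at 0.21 to 1.06 and Emilin2 at 0.16 to 1.84 with a library left out. The lowest count among these genes was 352. The SE of Emilin2 was 0.68 without the block and 0.14 with it, and that of Lgals3 0.41 and 0.14.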

Other observations

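Among the other late-maturation genes, Cx3cr1, which encodes the fractalkine receptor of late NK cells and monocytes, stood at 551 and 758 CPM in KO libraries 1 and 2, against 235 and 471 CPM in WT libraries 1 and 2. Both KO libraries lay above both WT libraries, and the fitted value was 0.89 on the log2 scale (SE 0.41), with an unadjusted edgeR p of 0.0900 and an edgeR adjusted p of 1.00. It was chosen here after its values were seen and had the highest fold change of the 25 genes. Its same-number log2 ratios were 1.23 and 0.69. Of the 25, 3 had both KO libraries above both WT libraries, against 9.64% of all tested genes. For 2 of the 25 both lay below, against 11.6%.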
